A study of Gallus gallus with 8 samples.

Results

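The comparison set the first guide RNA of each of 3 targeted genes against the second guide RNA of the same gene, in chicken (Gallus gallus) trunk neural crest cells. It used 6 of the 8 libraries of the study. The first-guide side held the libraries labelled DLC1 gRNA1, PHF5A gRNA1 and SF3B1 gRNA1, the second-guide side held DLC1 gRNA2, PHF5A gRNA2 and SF3B1 gRNA2, and the libraries were paired by target. The pairing was chosen because the share of reads from the mitochondrial chromosome was lower in the first guide of every target, and the question was which nuclear genes moved with that share. The share is therefore given as a description, with no test.

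The study profiled RNA of GFP+ (green fluorescent) primary cells of the trunk neural crest in which Cas9 had been aimed at DLC1, PHF5A or SF3B1 to knock it out, with a scrambled guide RNA as the control. All groups shared the Cas9 approach, the GFP+ selection and the tissue. Each knockout library carried 1 guide, and the 2 control libraries carried the scrambled guide. A guide's number is only a label: nothing in the labels ties the first guides of different targets to a shared embryo pool, culture, day or sequencing run, or says that libraries came from separate cultures. P-values therefore measure the spread between these libraries, which may be technical. In the fit with target as a block, that spread is how far the difference between guides varied from target to target, not a spread between replicates. The guide sequences, the level of each targeted gene and the markers of neural crest were not analysed here, because the deposited gene IDs were not paired with names.

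The neural crest is a vertebrate embryonic population that leaves the dorsal neural tube and, in the trunk, forms sensory and sympathetic neurons, glia and pigment cells. SF3B1 and PHF5A belong to SF3b, a complex within the U2 snRNP through which the spliceosome selects intron branch points, and DLC1 is a regulator of the actin cytoskeleton. The mitochondrial chromosome encodes subunits of the respiratory chain together with the ribosomal and transfer RNAs needed to make them. Its transcripts are made inside the organelle and do not pass through the spliceosome, and their share of an RNA library is commonly followed as a measure of cell state and of RNA quality.

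Mitochondrial reads made up 9.65% of all counts in the first DLC1 guide and 15.7% in the second. The shares were 8.01% and 19.6% for PHF5A. They were 9.44% and 18.0% for SF3B1. The groups did not overlap: the first guides averaged 9.03% ± 0.89 (SD, n = 3) and the second guides 17.7% ± 1.94 (SD, n = 3), and every knockout library lay below both controls, at 25.9% (control 1) and 21.4% (control 2). Wilson 95% intervals of these shares reached at most 0.020 percentage points to either side and cover counting error only. As a log2 ratio of mitochondrial to nuclear counts, the first guide minus the second gave -0.80 for DLC1, -1.48 for PHF5A and -1.07 for SF3B1. In sorted cells measured in bulk, fewer cells of a type and less RNA per cell cannot be told apart.

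**Figure D1:**
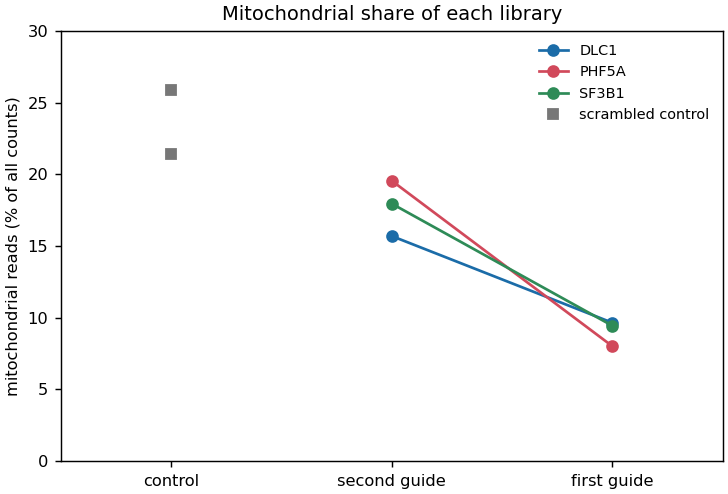
Mitochondrial reads as a percent of all counts in each of the 8 libraries; lines join the second and the first guide of a target and squares are the controls. The first guides sit between 8.01% and 9.65%, the second guides between 15.7% and 19.6%, and the controls at 21.4% and 25.9%.

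The lower share was spread over the mitochondrial chromosome. Of its 37 features, 32 were lower in the first guide in all 3 pairs relative to nuclear counts, and 37 of 37 were lower in the PHF5A and in the SF3B1 pair. The DLC1 pair had a median log2 ratio of -0.66, the PHF5A pair one of -1.28 and the SF3B1 pair one of -1.13. All 16 features longer than 80 bases were lower in all 3 pairs, and the 5 exceptions in the DLC1 pair were among the 21 shorter ones. Those exceptions held only 13 to 40 reads per DLC1 library. In the SF3B1 libraries the feature at 5172 to 5240 had 1 and 1 reads, and the one at 2273 to 2345 had 0 and 1. Directions of short features with so few reads are not read. The feature with the most reads, at positions 6645 to 8192 of the mitochondrial chromosome (build GRCg6a), took 30.0% to 33.8% of mitochondrial reads in every library, and its log2 ratio was -0.92, -1.44 and -1.27 for DLC1, PHF5A and SF3B1. Not all features kept to one ratio. The feature at 1297 to 2272 gave -0.01 for DLC1 against -0.92 for PHF5A and -0.66 for SF3B1, the one at 2346 to 3966 gave -0.10, -1.01 and -1.04, and the one at 16184 to 16705 gave -0.05, -1.71 and -1.32. In the DLC1 pair these 3 long features thus lay near 0 while the most abundant one lay near -0.92.

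Total counts ran from 18545207 to 34698250 in the 6 libraries and nuclear counts from 15214633 to 31617387. Within a target the totals differed little, with log2 ratios of the first to the second guide of -0.01, 0.02 and 0.08 for DLC1, PHF5A and SF3B1. A floor of 3 counts stood for 0.0897 to 0.192 CPM (counts scaled to a common nuclear total) over the 6 libraries. Reads from the W chromosome, which in birds only females carry, made up 0.117% of nuclear counts in the first and 0.138% in the second DLC1 guide, 0.0402% and 0.121% for PHF5A, and 0.259% and 0.193% for SF3B1. Its direction differed between targets, so it did not follow the guide number. The part of the W share in the results below was examined only by adding it to the edgeR fit as a covariate, which gave 12 calls in place of 0 and a span difference (defined below) of 0.34 in place of 0.38.

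No nuclear feature passed the main test across the 3 pairs. In edgeR's quasi-likelihood test with target as a block, 0 of 15800 features had a Benjamini-Hochberg adjusted p under 0.05 (0%), and the lowest adjusted p was 0.173. At an unadjusted p under 0.05 there were 2468 features (15.6%), of which 1175 were higher in the first guide (7.44%) and 1293 were lower (8.18%). The lists of 1175 and 1293 features below are these, and no member of them was called. The limma-voom fit called 0 features as well, with 2442 at an unadjusted p under 0.05, whereas DESeq2 called 344, 112 higher and 232 lower. With 2 residual degrees of freedom, the biological coefficient of variation of the fit was 16.0%.

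The slope on the size of the mitochondrial difference gave a similar picture, but it was not a separate check. It used the same libraries, again with target as a block. The log2 mitochondrial differences within pairs were -0.80 for DLC1, -1.48 for PHF5A and -1.07 for SF3B1. All had the same sign because the pairs were chosen that way, so the slope could hardly be told apart from the guide comparison. Of the 15800 features, 0 were called for the slope on the log2 mitochondrial to nuclear ratio (0%), with a lowest adjusted p of 0.0839, and 3028 had an unadjusted p under 0.05 (19.2%). Of the latter, 1534 were higher and 1494 lower where the mitochondrial share was higher.

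**Figure D2:**
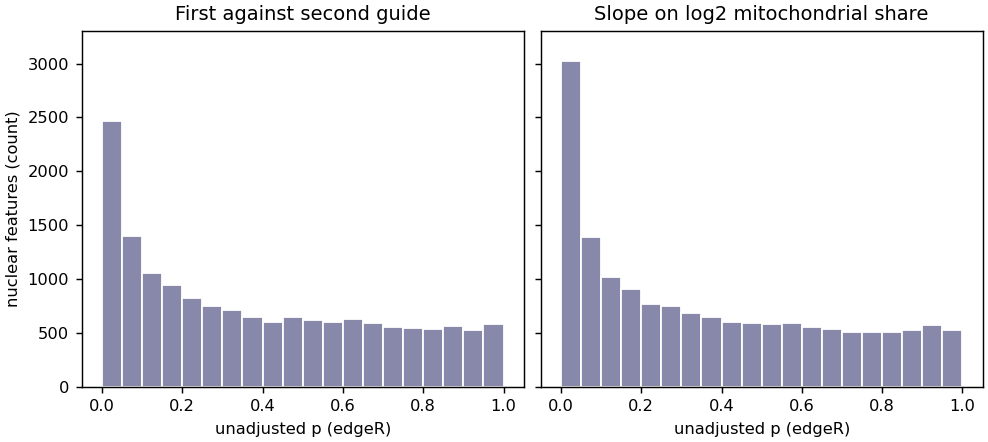
Number of nuclear features (vertical axis) by unadjusted p from edgeR in bins of 0.05 (horizontal axis), for the guide comparison on the left and for the slope on the log2 mitochondrial to nuclear ratio on the right. The lowest bin holds 2468 and 3028 of the 15800 features, the tallest bar of each panel.

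The count of calls turned on the pairs included. Without the DLC1 pair, edgeR called 2415 of 15163 features, 1097 higher in the first guide (7.23%) and 1318 lower (8.69%). That fit had 1 residual degree of freedom and drew most features fully to a shared trend of the spread. In the same 4 libraries DESeq2 called 921 and limma-voom 2544 of these 15163 features. Without the PHF5A pair 4 of 15187 features were called, all higher in the first guide, and 12.1% had an unadjusted p under 0.05. Some of the 4 had almost no reads in the second guides and passed the low-count filter through the first. Nothing is read from their direction. Without the SF3B1 pair 0 of 15532 were called, with 741 at an unadjusted p under 0.05 (4.77%). That share is about what this threshold gives where nothing differs. With 1 residual degree of freedom it cannot show that nothing differed, and the span difference (defined below) in that fit was 0.39. The PHF5A and SF3B1 pairs as a set thus gave many more calls than any set of pairs that held the DLC1 pair.

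The 3 pairs were of like size but shared only part of their direction. The log2 ratio had an SD over features of 0.48 in the DLC1 and SF3B1 pairs and of 0.52 in the PHF5A pair. At 2-fold or more, 702 features were higher and 114 lower in the first DLC1 guide, 317 higher and 606 lower in the first PHF5A guide, and 480 higher and 273 lower in the first SF3B1 guide. The balance of higher and lower features at that size thus leaned upward for DLC1 and SF3B1 and downward for PHF5A. Across 15800 features, which are not independent replicates, Pearson's r between pairs was 0.26 for PHF5A and SF3B1, 0.21 for DLC1 and SF3B1, and -0.06 for DLC1 and PHF5A, with Spearman coefficients of 0.38, 0.24 and -0.006. All 3 pairs pointed upward at 3080 features (19.5%) and downward at 3027 (19.2%). Changes of at least 1.5-fold in all 3 pairs were found at 74 features upward and 36 downward, and changes of at least 2-fold at 10 upward and 2 downward.

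The span of a feature, its distance from start to end with introns, ordered the differences. Among the 1429 features of 1 to 3 kb, 343 were lower in the first guide at an unadjusted p under 0.05 (24.0%, against 8.18% of all tested) and 17 were higher (1.19%, against 7.44%), with a median log2 fold change of -0.22. Among the 4365 features of 3 to 10 kb, 697 were lower (16%) and 85 higher (1.95%), with a median of -0.14. The 4841 features of 10 to 30 kb had a median of 0.03, with 288 higher (5.95%) and 165 lower (3.41%), both below the shares of all tested. At 30 to 100 kb the order was turned round, with 561 of 3560 higher (15.8%), 34 lower (0.955%) and a median of 0.16. The 1234 features of 100 to 300 kb had 202 higher (16.4%), 20 lower (1.62%) and a median of 0.16. Short features thus tended to be lower and long ones higher in the first guide, while the median over all features was 0.016. The smallest and the largest features were less uniform. The median was -0.28 over 135 features no longer than 1 kb, and 0.04 over 236 features longer than 300 kb.

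The order by span was present in each pair. For features of 1 to 3 kb the DLC1 pair had a median log2 ratio of -0.11, the PHF5A pair one of -0.34 and the SF3B1 pair one of -0.24. For features of 30 to 100 kb it was 0.14, 0.19 and 0.12. The span difference, which is the median at 30 to 100 kb minus the median at up to 3 kb, came to 0.25 in the DLC1 pair, 0.54 in the PHF5A pair and 0.36 in the SF3B1 pair, with a mean of 0.38 ± 0.15 (SD, n = 3). All 3 values were above 0. Over these 3 points the order of their sizes was that of the mitochondrial differences, on which the pairs had been chosen. The medians at 30 to 100 kb alone did not keep that order, and nothing is read from it. With 3 pairs an exact two-sided sign-flip test cannot go below p = 0.25, so no test was made. In the control pair, read as the control with the lower mitochondrial share minus the other, the span difference had the opposite sign, -0.19, at a log2 mitochondrial difference of -0.36. Those controls also differed in W share, at 0.198% and 0.00279%. Counts were taken over whole spans, so reads from introns may be among them, and their part in the order by span was not tested.

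**Figure D3:**
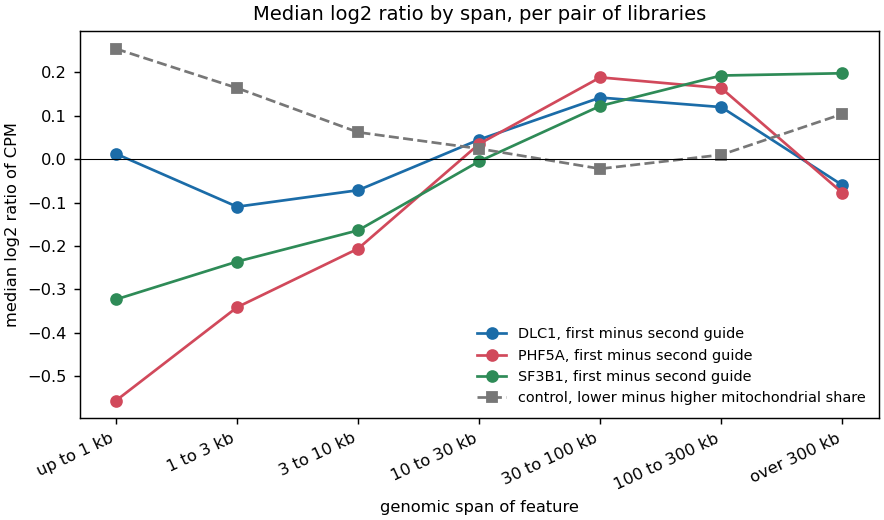
Median log2 ratio of CPM (vertical axis) by span class of nuclear features (horizontal axis), for the first minus the second guide of each target and, dashed, for the control with the lower minus the control with the higher mitochondrial share. Between 1 to 3 kb and 30 to 100 kb the 3 guide pairs climb from between -0.34 and -0.11 to between 0.12 and 0.19, while the control pair goes from 0.16 to -0.02.

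Among the classes of span and mean level that were compared, abundant features of 1 to 3 kb stood lowest. Features of up to 1 kb were not compared by level. The tested features were split into 5 equal classes by their mean level over the libraries. Of the 182 features of 1 to 3 kb in the highest class, 126 were lower in the first guide at an unadjusted p under 0.05 (69.2%) and 1 was higher, and 145 were lower in all 3 pairs against 2 that were higher in all 3. Their median log2 fold change was -0.39, and the pair medians were -0.23, -0.47 and -0.45 for DLC1, PHF5A and SF3B1. Over all 3160 features of the highest class, 16.9% were lower and 7.37% higher, against 8.18% and 7.44% of all tested. In the lowest class, 11 of 512 features of 1 to 3 kb were lower (2.15%) and 7 higher (1.37%), with a median of -0.07. The pair medians there were 0.09 for DLC1, -0.19 for PHF5A and -0.05 for SF3B1. Over all features of the lowest class, 1.49% were lower and 2.53% higher. For features of 30 to 100 kb, 165 of 779 in the middle class were higher (21.2%) and 6 were lower. In the highest class 132 of 770 were higher (17.1%) and 15 were lower. The pair medians of these 770 features were 0.004 for DLC1, 0.25 for PHF5A and 0.09 for SF3B1. The lowest class holds few reads per feature, which limits what could be detected there, and the part of this in its smaller differences was not tested.

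Differences also followed the chromosome. The large chromosomes 1 to 10 had a median log2 fold change of 0.07 over 9353 features and the smaller chromosomes 11 to 33 a median of -0.07 over 5536. Of 34 chromosomes with at least 20 tested features, 15 had a median below 0 in all 3 pairs and 8 a median above 0 in all 3. Birds carry many small, gene-dense microchromosomes, and the lowest medians were among these. Chromosome 30 had a median of -0.31, with 48 of 122 features lower at an unadjusted p under 0.05 (39.3%, against 8.18% of all tested) and 1 higher (0.82%, against 7.44%). Chromosome 32 followed with -0.29, 25 of 59 lower (42.4%) and 3 higher (5.08%). Chromosome 33 had -0.26, with 75 of 252 lower (29.8%) and 4 higher (1.59%). Chromosome 25 had -0.26, with 63 of 195 lower (32.3%) and 1 higher (0.513%). These 4 were below 0 in every pair.

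Small chromosomes hold shorter features, with a median span of 9.75 kb on chromosomes 11 to 33 against 20.4 kb on chromosomes 1 to 10. Within 1 span class a gap in the medians stayed, and it was wider for short features. At 1 to 3 kb the median was -0.13 on chromosomes 1 to 10, where 125 of 697 features were lower (17.9%). It was -0.31 on chromosomes 11 to 33, where 205 of 647 were lower (31.7%). At 30 to 100 kb the medians were 0.17 and 0.13. The shares higher at an unadjusted p under 0.05 did not follow that gap, at 15.8% on chromosomes 1 to 10 and 16.8% on chromosomes 11 to 33. The Z chromosome had pair medians of 0.07, 0.18 and -0.12 for DLC1, PHF5A and SF3B1, and the W chromosome of -0.16, -1.01 and 0.60. The sex chromosomes thus did not hold a direction across targets.

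**Figure D4:**
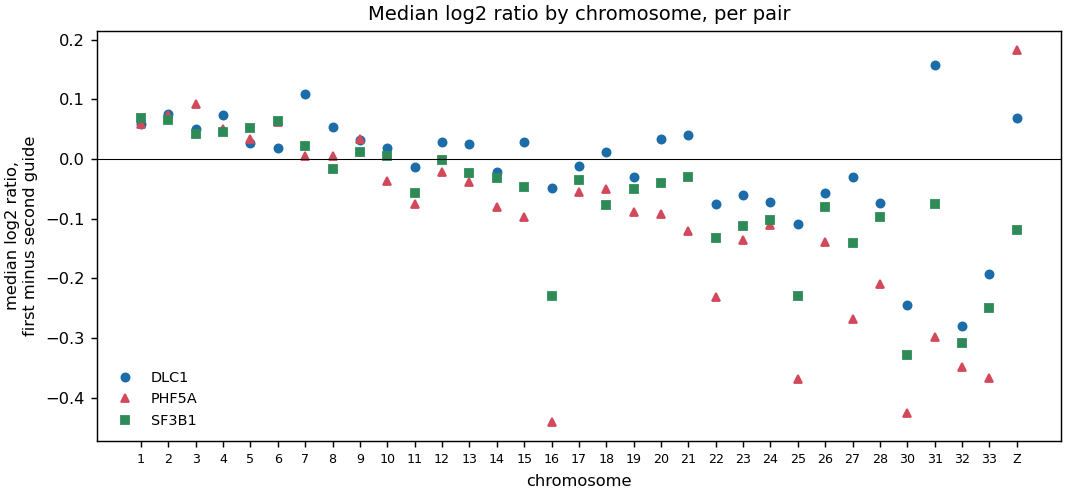
Median log2 ratio of the first to the second guide (vertical axis) over the tested features of each chromosome (horizontal axis), with 1 symbol per target; W is left out. Medians lie near or above 0 on chromosomes 1 to 9 and below 0 in all 3 pairs on chromosomes 22 to 28, 30, 32 and 33.

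Single features showed how the pairs differed. The rule for named features asked for calls and gave 0 higher and 0 lower; after that was seen it was applied at an unadjusted p under 0.05, which left 991 higher and 1169 lower features, and the largest fold changes in each direction are given. ENSGALG00000051776 on chromosome 7 (15144372 to 15384364, plus strand) stood at 14.2 CPM in the first and 1.67 CPM in the second DLC1 guide, at 1.17 and 0.699 CPM for PHF5A and at 4.03 and 1.22 CPM for SF3B1. The groups overlapped, because the first PHF5A guide lay below the second guides of the other targets, while each pair pointed upward. Its log2 fold change was 2.01 (SE 0.44), with an adjusted p of 0.173 in edgeR's quasi-likelihood test. This feature met the minimum of 5 CPM only through the first guides (mean 6.5 against 1.2 CPM), so nothing is read from its test. ENSGALG00000000302 on chromosome 26 (805741 to 818458, plus strand) stood at 58.6 and 22.2 CPM for DLC1, 0.478 and 0.419 CPM for PHF5A, and 14.7 and 4.35 CPM for SF3B1. Its level differed far more between targets than between guides, and its log2 fold change was 1.38 (SE 0.24, adjusted p 0.173 in edgeR). Its direction in the PHF5A pair rested on 16 and 12 reads, and the 2 controls stood at 34.0 and 107 CPM. Nothing is read from its test either.

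Of the lower features, ENSGALG00000061498, on the unplaced scaffold KZ626834.1, stood at 3.64 CPM in the first and 6.50 CPM in the second DLC1 guide, at 4.45 and 8.70 CPM for PHF5A, and at 2.5 and 8.13 CPM for SF3B1. The 3 first guides all lay below the 3 second guides, and the log2 fold change was -1.14 (SE 0.24, adjusted p 0.173 in edgeR). ENSGALG00000031373 on chromosome 21 (168649 to 175434, minus strand) stood at 6.58 and 17.8 CPM for DLC1, 4.39 and 5.45 CPM for PHF5A, and 2.65 and 8.38 CPM for SF3B1. The groups overlapped, and the log2 fold change was -1.12 (SE 0.28, adjusted p 0.173 in edgeR). Both lower features met the minimum of 5 CPM only through the second guides. Their means were 7.78 and 10.5 CPM there, against 3.53 and 4.54 CPM in the first guides. Nothing is read from their tests.

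**Figure D5:**
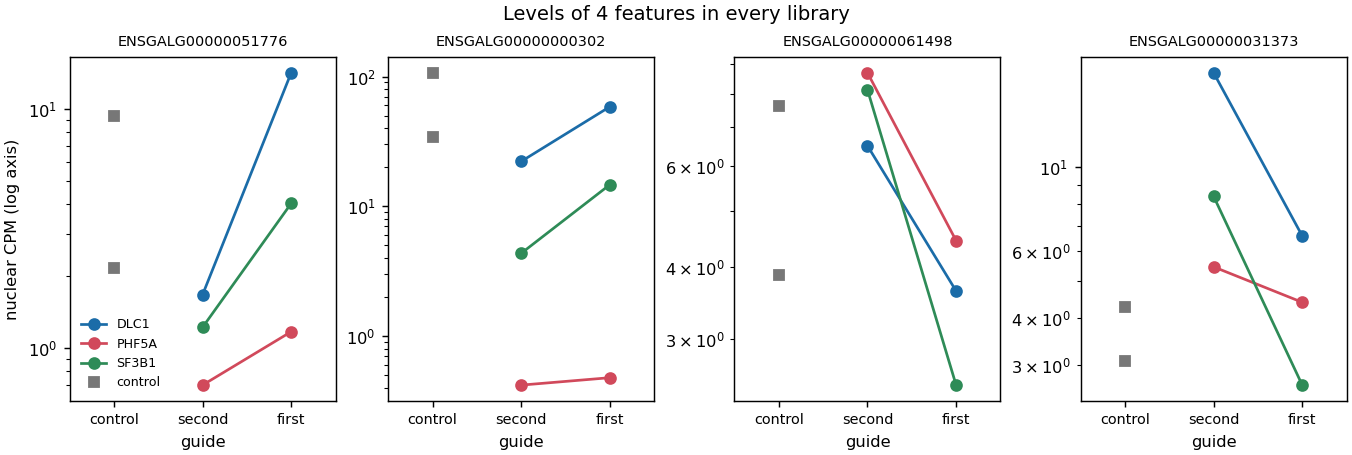
Nuclear CPM on a log axis of the 2 higher and the 2 lower named features in each library; lines join the second and the first guide of a target and squares are the controls. Each line climbs in the first and second panels and drops in the other two, and in the second panel PHF5A lies at 0.419 and 0.478 CPM, far below the controls at 34.0 and 107 CPM.

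A small set of features was much higher in the first than in the second guide of both DLC1 and SF3B1. At 4-fold or more, 7 features were higher in both first guides and 0 were lower, and for the other pairings of targets there were 0 in either direction. Of the 7, 4 were below 1 CPM in both PHF5A libraries, and 6 were also at least 2-fold higher in the control with the lower mitochondrial share than in the other control. At 2-fold or more, 76 features were higher in both first guides and 16 lower, and 28 of the 76 were also 2-fold higher in the control with the lower mitochondrial share. The share of all features that differed so between the controls was not counted, and the controls also differed in W share. Nothing is therefore read from the 6 or the 28. Some of the 7 were at the floor in the second guides. The feature at 43137457 to 43141188 of the Z chromosome stood there at 0 CPM for DLC1 and 0.064 CPM for SF3B1. Between the controls it went the other way, at 8.91 CPM in control 1 and 2.83 CPM in control 2. Nothing is read from these counts. The 4 features called without the PHF5A pair were among the 7, and they are given here after their values were seen. The feature at 375459 to 424237 of chromosome 18 had 129 reads in the first and 1 in the second DLC1 guide, 38 and 0 reads for SF3B1, 0 and 0 for PHF5A, and 6 and 88 in controls 1 and 2. It passed the filter on low counts through the libraries where it was high, so nothing is read from its test. The feature at 6330267 to 6335549 of chromosome 15 stood at 27.4 and 2.88 CPM for DLC1, 3.83 and 0.256 CPM for SF3B1, 0.239 and 0.315 CPM for PHF5A, and 5.89 and 51.2 CPM in controls 1 and 2. Both features thus also differed between the controls, and were higher in the control with the lower mitochondrial share.

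Levels in the guide groups were also set in order with the controls. In 907 features all 3 first guides lay above all 3 second guides (5.74%), and in 955 they lay below (6.04%), beside 0% called. These shares were below the 7.44% and 8.18% with an unadjusted p under 0.05, and nothing is read from them: an exact two-sided permutation test of 3 against 3 libraries cannot go below p = 0.1. In 394 features every first guide lay above every second guide and these above both controls (2.49%), and in 480 the order was the reverse (3.04%). The orders with the second guides outermost held for 62 (0.392%) and 48 features (0.304%). Those with the controls in the middle held for 14 (0.0886%) and 13 (0.0823%). Nothing is read from these counts either. By distance, the first guide of each target lay farther from the control mean. Of 15529 features, 17.9% differed from it by over 2-fold in the first and 16.0% in the second DLC1 guide. The shares were 25.5% and 21.9% for PHF5A, and 21.1% and 15.0% for SF3B1.

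The difference between all knockouts and the controls gave the scale for this. In an edgeR fit of all 8 libraries, 5627 of 15529 features were called, 2954 higher in the knockouts (19%) and 2673 lower (17.2%). The split of these calls moved with the scaling, to 2520 higher and 3119 lower with median-ratio size factors and to 4750 higher and 1428 lower with nuclear library sizes alone, where the median log2 fold change of all features was 0.31 in place of 0.08. Of the 1166 features higher in the first guide that both fits tested, 618 were called higher in the knockouts (53%) and 58 lower (4.97%). Of the 1289 lower ones, 818 were called lower (63.5%) and 45 higher (3.49%). As shares of the knockout calls these were 20.9% of the higher and 30.9% of the lower list. Both lists thus held knockout calls of their own direction at more than the share among all features. The lists were picked at an unadjusted p from the same knockout libraries. They seldom took features with few reads, with 2.53% of the lowest class of mean level in the higher list and 1.49% in the lower. All features are therefore not a like background, and nothing is read from the gap. With control 2 left out, 3019 features were called against control 1 and the shares were 32.2% and 43.2%.

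The 2 contrasts use the same 6 knockout libraries, and only the second uses the controls. Both also followed span: the knockout median was -0.34 at 1 to 3 kb and 0.33 at 30 to 100 kb. The median span was 44.4 kb in the higher list and 4.60 kb in the lower list, against 15.8 kb over all features. Between the controls themselves most of either list pointed the other way. Of the higher list, 33.5% were higher in the control with the lower mitochondrial share, against 54.3% of all features, and of the lower list 35.3% were lower there, against 45.7% of all. Over 15471 features the log2 ratios of this control pair had a Pearson's r of 0.22 with those of the DLC1 pair, -0.24 with the PHF5A pair and -0.08 with the SF3B1 pair, so the direction differed between targets. The control pair is 1 library a side and also differed in W share, and the part of either in these values was not tested.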

How the data were processed

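RNA-seq was done on sorted GFP+ cells, 1 library per guide and 2 control libraries. Per the labels' protocols, RNA was treated with DNase and libraries were made with a stranded kit for messenger RNA. The submitters' processing notes name build GRCg6a and, as tools, STAR 2.7.11b, featureCounts 1.5.3 (Subread), Trimmomatic 0.39 and FastQC 0.12.1. Which annotation release and strand setting were used is not given in the sources. The deposited values are the authors' raw counts for 30862 features, each with its position, strand and length. In 100% of rows this length was the whole span, so intronic reads and reads of overlapping features cannot be separated from the rest. The deposited Ensembl IDs matched 0 names in a table of 25635 RefSeq genes (assembly GRCg7b), so the gene lists and cell type markers that had been drawn up could not be used. The number of count columns left out was 0.

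From the counts, mitochondrial rows were set aside before scaling. Nuclear features were kept by filterByExpr (15800), scaled by TMM and tested with edgeR 4.0.16 (R 4.3.3; quasi-likelihood F-test, robust dispersion) with target as a block, and p-values were adjusted by Benjamini-Hochberg over all features tested, with 0.05 as the threshold. SEs were derived from the F statistic. Log2 ratios per pair used a prior count of 2. The slope replaced guide number by the log2 mitochondrial to nuclear ratio. The knockout comparison used all 8 libraries. The fits were also run on simulated counts in which a changed feature moved the same way in every target. The real pairs shared only part of their direction, so nothing is read from those runs about these data. DESeq2 1.42.0 and limma 3.58.1 (voom) were alternatives, beside other scalings and filters and leaving out each pair.

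Same-target libraries deviated together from their guide group's mean, with correlations over features of 0.57 for DLC1, 0.25 for PHF5A and 0.68 for SF3B1, so target was kept as the pairing. Named features were to be the called features with the largest absolute fold change, all 3 pairs on one side of 0 and at least 5 CPM in either guide group. The comparison, its members and the lists were chosen with earlier results of these data known.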

Additional observations from a re-analysis of the deposited data

Results flagged for a closer look

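In several measures 1 pair of libraries pointed the opposite way from the other 2 pairs. Each target has 1 pair, so none of these differences was tested. The W chromosome share, as a log2 ratio of the first to the second guide, was 0.42 for SF3B1 against -0.24 for DLC1 and -1.59 for PHF5A. The Z chromosome share was -0.14 for SF3B1 against 0.10 and 0.18. The number of features detected at a common depth gave -0.015 for PHF5A against 0.035 for DLC1 and 0.023 for SF3B1. Of the median log2 ratios by span, features of up to 1 kb gave 0.012 for DLC1 against -0.56 for PHF5A and -0.32 for SF3B1. Features of 10 to 30 kb gave -0.0048 for SF3B1 against 0.045 and 0.035. Features over 300 kb gave 0.20 for SF3B1 against -0.06 and -0.08.

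By class of mean level (5 classes), the PHF5A pair ran against the others. In the lowest class its median was -0.17, against 0.17 for DLC1 and 0.07 for SF3B1. In the next class up it was -0.078, against 0.14 and 0.06. In the highest class it was 0.055, against -0.11 and -0.08. In the class next to the highest the SF3B1 pair gave -0.035, against 0.0016 for DLC1 and 0.04 for PHF5A.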

How the results depend on the processing

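The main limit is 3 pairs, 1 per target, with 2 residual degrees of freedom, and names were not at hand. For the guide comparison, 0 features were called in the paired fit. The fit with no replicate block also called 0, with 802 of 15377 features at an unadjusted p under 0.05. Leaving out each pair gave 0 to 2415 calls. No low-count filter gave 11, DESeq2 344 and the W share as a covariate 12. Alternatives chosen after the data were seen gave, in the PHF5A and SF3B1 pairs, 921 calls with DESeq2, 2544 with limma-voom and 2301 with non-robust dispersion. For the slope, calls were 542 with no low-count filter, 1 over all 8 libraries and 0 to 3061 leaving out each pair. The slope with no replicate block gave 0. With mitochondrial rows kept in the scaling the slope gave 16 calls. That fit also tested the mitochondrial features themselves, so the 16 may include them and are not a count of nuclear features. Median-ratio size factors, nuclear library sizes alone and a minimum mean of 1 CPM gave 0 calls in both fits. The knockout comparison called 3019 to 5973 features leaving out a control or a pair, the lowest without control 2; these were also added after the data were seen, as was the share of the higher list called higher in the knockouts, which ranged down to 32.2%. The span difference of 0.38 stayed above 0 in all 14 alternatives, from 0.32 to 0.48 leaving out each pair, and was 0.39 with no replicate block. The 4 named features kept their direction in 13 of 13 alternatives each. They were picked from these data with all 3 pairs on one side of 0, so a reversal was hardly possible. Of these 52 values 10 passed the threshold, and DESeq2 gave no adjusted p for ENSGALG00000051776. Nothing is read from either count. The cause of each change was not tested.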

Other observations

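First-guide libraries were less dominated by a few abundant nuclear features. The 20 most abundant features took 7.94% of nuclear counts in the first and 9.30% in the second DLC1 guide, 7.19% and 8.01% for PHF5A, and 7.24% and 8.14% for SF3B1, with 9.21% and 9.38% in the controls. The share was lower in the first guide of each target and lower in each first guide than in any second guide or control. At a common nuclear depth, 19131 features were detected in the first and 18673 in the second DLC1 guide, 18981 and 19182 for PHF5A, and 19280 and 18975 for SF3B1. The controls gave 18238 and 18420, below every knockout library.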
